A study of Rattus norvegicus with 21 samples.

Results

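The microRNAs of rat insulinoma cells exposed to inorganic arsenic (iAs) were compared directly with those of the same cells exposed to cadmium (Cd). The comparison rested on 6 of the 21 libraries of the series, 3 labelled iAs at 1 µM and 3 labelled Cd at 5 µM, and on the 523 of 1186 rows of the small RNA table with a mean of at least 10 RPMMM over its 12 libraries. RPMMM is the authors' unit, reads per 1000000 reads mapped to microRNAs. The cells were INS-1 832/13, 1 insulin-secreting line derived from a rat beta cell tumour, exposed for 24 h after 24 h in 12-well plates. The other 6 small RNA libraries, 3 untreated and 3 with 25 µM manganese (Mn), entered the filter on low rows and the estimate of the spread but not the difference, and their values are given as a reference. The series title sets arsenic against cadmium and manganese for their effect on the microRNAs of this line. The doses of the 2 metals were not matched, so each difference is between these exposures and not between equal amounts of metal. The labels do not say whether the 3 libraries of each group were grown apart, and the p-values therefore reflect only the spread between these libraries, which may be technical.

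A microRNA is cut from a hairpin precursor that yields a 5p and a 3p strand. The strand that is kept guides an Argonaute protein to messenger RNAs, mainly through its seed, the bases 2 to 8, and lowers their translation and stability. Hairpins that lie close together are often made from a shared transcript, and microRNAs with a shared seed form a family with overlapping targets. A start moved by a base gives the same strand another seed. In beta cells microRNAs such as miR-375 and miR-7a are known to restrain insulin secretion and to mark the cell's identity.

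Between iAs and Cd, 15 of the 523 rows (2.87%) differed at an adjusted p under 0.05 (called below; limma, Benjamini-Hochberg over all 523 rows). Of these, 3 were higher with iAs (0.574% of rows) and 12 were lower (2.29%). Lower with iAs were 4 rows of the imprinted Dlk1-Dio3 cluster (miR-541-5p, miR-382-5p, miR-410-3p and a shifted form of miR-409a-3p), at 36.5% to 64.9% of their Cd level. The neighbours miR-195-3p and miR-497-5p and the inflammation-linked miR-146a-5p were higher with iAs, by 1.42-fold to 1.70-fold. On the log2(RPMMM + 1) scale of the test, 6 of the 523 rows differed by more than 1.5-fold, the 4 Dlk1-Dio3 rows, miR-195-3p and miR-146a-5p. As a ratio of mean RPMMM, miR-369-3p and a shifted form of miR-92b-3p were also past that size, with Cd at 1.52-fold and 1.51-fold the iAs level. In these bulk libraries fewer cells making a microRNA and less of it per cell cannot be told apart.

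The mature sequences of the microRNAs these differences turn on are given 5′ to 3′, with the seed in capitals, from RefSeq (build GRCr8), where 38 of the 523 tested rows found no sequence. The first set is the Dlk1-Dio3 group, shown because its 5 tested members all had lower means with iAs and yet carry 5 different seeds.
miR-382-5p: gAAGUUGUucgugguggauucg
miR-541-5p: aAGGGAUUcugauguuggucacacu
miR-409a-3p, start 1 base upstream: gAAUGUUGcucggugaacccc
miR-369-3p: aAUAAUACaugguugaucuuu
miR-410-3p: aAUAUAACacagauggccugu

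The second set holds the rows that were higher with iAs and miR-195-5p, the other strand of the miR-195 hairpin, whose seed AGCAGCA is also that of miR-497-5p.
miR-497-5p: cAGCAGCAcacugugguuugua
miR-195-5p: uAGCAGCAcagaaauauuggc
miR-195-3p: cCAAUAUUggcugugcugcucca
miR-146a-5p: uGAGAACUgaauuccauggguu

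The third set holds further rows that were lower with iAs, among them miR-92b-3p and its form with a start 1 base downstream, which shows how a single base moves the seed.
miR-27b-5p: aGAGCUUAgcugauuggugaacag
miR-92b-3p: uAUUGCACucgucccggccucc
miR-92b-3p, start 1 base downstream: aUUGCACUcgucccggccucc
miR-421-3p: aUCAACAGacauuaauuggg
miR-708-5p: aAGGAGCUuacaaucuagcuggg

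The files mark shifted forms by a sign and a number of bases without saying which way the sign counts. Here a minus sign is read as a start upstream of the annotated one and a plus sign as a start downstream. The 3′ end of a shifted form is that of the RefSeq entry.

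The 12 libraries held about 5907372 to 7906388 microRNA reads each, as judged from the spacing of their low values, so 10 RPMMM stood for about 59.1 to 79.1 reads. Of the 6 listed beta cell and neuroendocrine microRNAs, miR-375 and miR-7a were the most abundant. All rows of miR-375 summed to 57498 to 71865 RPMMM per library and those of miR-7a to 203831 to 235805. The others were lower, miR-9a at 1451 to 2023 RPMMM, miR-153 at 120 to 171, miR-184 at 34.81 to 56.86 and miR-124 at 6.57 to 21.15. Liver is the tissue named in the labels, yet the rows of miR-122, which defines hepatocytes, summed to 4.90 to 12.6 RPMMM. The other listed hepatocyte microRNAs, which epithelia also make, were abundant, with miR-192 at 9492 to 12089 RPMMM and miR-194 at 2981 to 3900. The fibroblast, blood and muscle microRNAs miR-145, miR-214, miR-223, miR-150, miR-155, miR-133b and miR-206 had no row in the table, and neither did the acinar miR-216a. Other members of these lists were present at low levels, miR-1 at 13.43 to 22.18 RPMMM, miR-216b at 6.04 to 10.74, miR-217 at 4.10 to 7.32 and miR-133a at 1.43 to 3.04, with miR-142, miR-199a and miR-143 between 0 and 4.12. The endothelial miR-126a summed to 220.46 to 226.57 RPMMM with iAs and 199.57 to 215.95 with Cd, and its part in the differences was not tested.

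Most microRNAs were close in level after the 2 metals. The median log2 difference of the 523 rows, as iAs minus Cd on the log2(RPMMM + 1) scale used throughout, was 0.01, and the median size of a difference was 0.10. The 10 most abundant rows, which held 51.4% of the total with iAs and 50.5% with Cd, differed by -0.08 to 0.15 and none was called (lowest limma adjusted p = 0.118). For 442 rows (84.5%) the 95% interval of the difference stayed within 1.5-fold either way. In all, 85 rows (16.3%) had an unadjusted p under 0.05, 33 of them higher with iAs and 52 lower. All 15 called rows had no overlap between the 3 iAs and the 3 Cd libraries, as did 113 of the 523 rows (21.6%), 44 with iAs above Cd (8.41%) and 69 with iAs below Cd (13.2%).

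**Figure D1:**
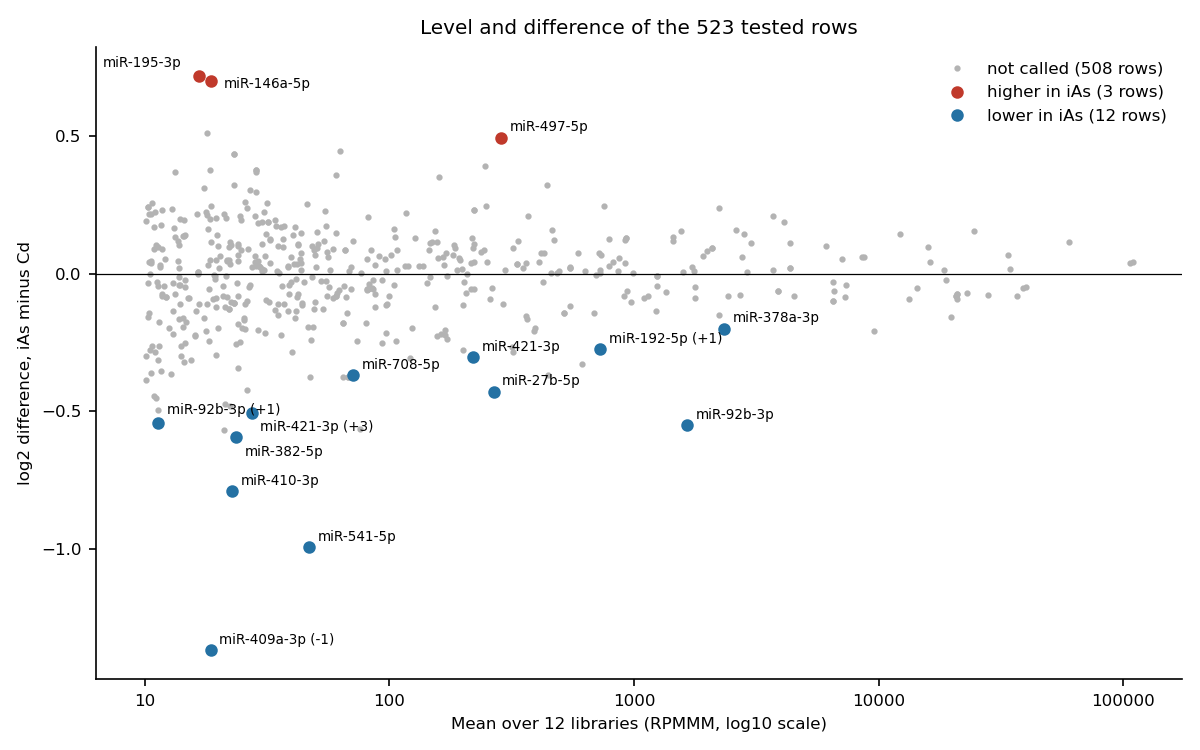
Mean level over the 12 libraries (RPMMM, log10 axis) against the log2 difference of iAs minus Cd for the 523 tested rows. Red points are the 3 rows called higher with iAs and blue points the 12 called lower. The 4 lowest points are the Dlk1-Dio3 rows miR-409a-3p (-1), miR-541-5p, miR-410-3p and miR-382-5p, and the 3 most abundant called rows, miR-378a-3p, miR-92b-3p and miR-192-5p (+1), are all on the lower side.

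The replicate numbers of iAs and Cd libraries deviated together, so a fit with the replicate number as a block is given beside the count. It called 8 rows (3 higher, 5 lower) in all 12 libraries and 25 rows (11 higher, 14 lower) in the 6 iAs and Cd libraries alone, 13 of them among the 15. The block left 6 residual degrees of freedom in the 12 libraries and only 2 in the 6, against 8 in the main fit. The untreated libraries did not share these numbers (untreated replicate 1 correlated at -0.55 with iAs replicate 1 and at -0.62 with Cd replicate 1). Their highest correlations crossed numbers, 0.69 for untreated replicate 1 with Cd replicate 2 and 0.60 for untreated replicate 3 with Cd replicate 1. The block in 12 libraries thus also forces a pairing on libraries that do not show it. After quantile normalization the 17 called rows split into 8 higher and 9 lower, 47.1% higher against 20% as deposited. The calls of miR-541-5p, the miR-409a-3p form, miR-27b-5p, miR-146a-5p and miR-195-3p were kept in every one of the 25 alternatives that gave them a value.

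The Dlk1-Dio3 region is an imprinted domain whose microRNA hairpins are made from long noncoding transcripts of the maternal chromosome. It is known for its high activity in brain, placenta and pancreatic beta cells. In the GRCr8 build the hairpins Mir541, Mir409, Mir369 and Mir410 lie within 1418 bp on the plus strand of chromosome 6, at chr6:134578421-134579838, and Mir382 starts 8477 bp before Mir541. Of 48 hairpin names listed for the region, 20 had a row in the table, with 32 rows in all, and 5 rows passed the filter. All 5 had lower means with iAs than with Cd, without overlap, and 4 were called (0 higher), with a median difference of -0.79. Over all 523 rows, 13.2% had iAs below Cd without overlap and 2.29% were called lower.

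miR-541-5p, the most abundant of these rows, measured 27.75, 28.59 and 28.23 RPMMM in the iAs libraries and 61.45, 48.74 and 62.41 in the Cd libraries. The highest iAs value was well under the lowest Cd value, and the untreated libraries, at 49.21, 51.50 and 52.96, lay with Cd. The means were 28.2 ± 0.421 and 57.5 ± 7.63 RPMMM (SD, n = 3 each), and the log2 difference was -0.995 (SE 0.11, limma adjusted p = 0.000177).

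miR-409a-3p was read mainly from a start 1 base upstream of the annotated one. This form measured 10.43, 7.84 and 6.46 RPMMM with iAs and 21.01, 25.34 and 21.45 with Cd. The groups stood apart, and the untreated libraries (18.67, 20.36 and 25.18) again lay with Cd. Its log2 difference, -1.37 (SE 0.16, limma adjusted p = 0.000301), was the largest of the 523 rows. The row of the annotated start held little signal, at 0, 1.39 and 0 RPMMM with iAs and 4.42, 1.81 and 2.55 with Cd. A form starting 2 bases upstream, just under the filter, was at 4.54, 3.92 and 3.51 against 11.69, 11.93 and 13.05 RPMMM, and it too was called when no filter was set (-1.41, limma adjusted p = 0.000915). The iAs libraries were thus below each Cd library for all 3 starts.

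miR-410-3p, from the last of the hairpins within the 1418 bp, measured 13.12, 15.94 and 9.19 RPMMM with iAs and 22.04, 22.30 and 22.50 with Cd. The untreated libraries, at 32.44, 27.15 and 25.07, lay above both metals. The log2 change between metals was -0.79 (SE 0.16, limma adjusted p = 0.0172). The call was lost in the 6 libraries alone (0.0694) and without iAs replicate 3 (0.0534), Cd replicate 2 (0.0514) or Cd replicate 3 (0.0838).

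miR-382-5p measured 17, 14.42 and 14.46 RPMMM with iAs against 22.13, 25.02 and 23.55 with Cd. The untreated libraries (22.15, 22.62 and 23.58) spanned the same range as Cd, and the Mn libraries were higher, at 34.88, 28.03 and 35.25. The log2 difference of iAs minus Cd was -0.59 (SE 0.11, limma adjusted p = 0.0113), with the call lost without iAs replicate 3 (0.0534), Cd replicate 2 (0.0514) or Cd replicate 3 (0.0592). miR-369-3p was not called. It measured 14.29, 12.14 and 14.04 RPMMM with iAs and 19.90, 20.87 and 20.55 with Cd, a log2 difference of -0.57 (95% interval -0.91 to -0.23, limma adjusted p = 0.0670). It passed the threshold in the 6 libraries alone (0.0407), also with the block (0.0434), and without untreated replicate 3 (0.0349).

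The 27 rows of the region under the filter were weak, and 19 of them had a lower mean with iAs than with Cd and 2 a higher one. This count was not made over all 663 rows under the filter, so it cannot be read as particular to the region. Over all 1186 rows without a filter the median log2 difference was 0. Among them 12 rows were listed at 0 in all 3 iAs libraries and 6 in all 3 Cd libraries. Without a filter, miR-134-5p was called as well, at 2.35, 1.64 and 1.97 RPMMM against 4.82, 3.89 and 5.25 (-0.92, limma adjusted p = 0.0141). Summed over these 27 rows alone, the level was 23.87 to 34.48 RPMMM with iAs and 58.95 to 69.84 with Cd. Several of the 27, such as the other starts of miR-409a-3p, come from the hairpins of tested rows and are not a separate set. Entries under about 10 reads are listed at 0, which lowers the sums, and more rows were at 0 with iAs than with Cd. Over all 32 rows the sum was 117.07, 111.56 and 96.25 RPMMM with iAs and 208.05, 212.11 and 209.41 with Cd. Untreated libraries summed to 206.82, 215.32 and 213.48 RPMMM and Mn libraries to 232.48, 233.15 and 227.95. The sum with Cd was 1.94-fold that with iAs, and it lay within the range of the untreated libraries.

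**Figure D2:**
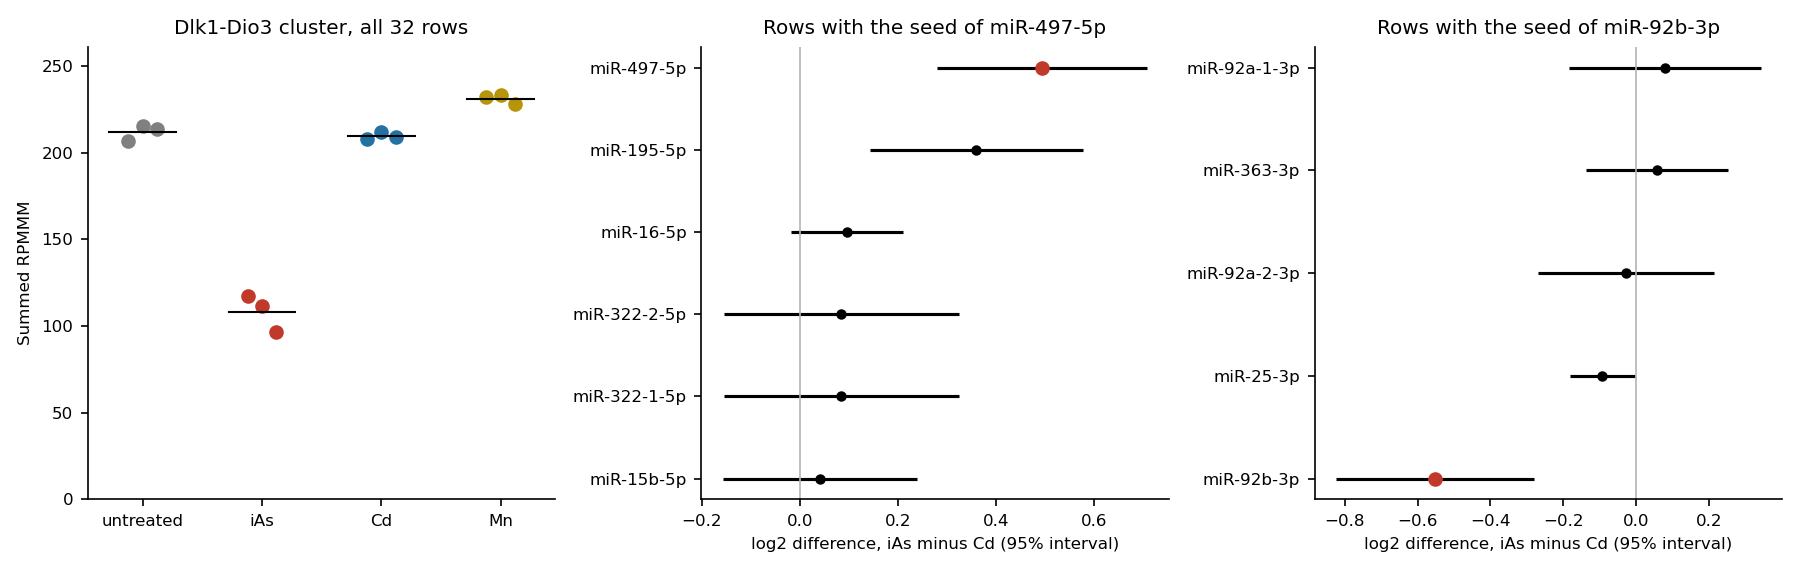
Left, RPMMM summed over the 32 rows of the Dlk1-Dio3 region in each library (points) with the group mean (bar). The iAs libraries sit at 96.25 to 117.07 and all others at 206.82 or above. Middle and right, log2 difference of iAs minus Cd with its 95% interval for the canonical rows that share the seed of miR-497-5p or of miR-92b-3p, with called rows in red. Only miR-497-5p and miR-92b-3p are called in their groups.

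Among the rows higher with iAs were those of a neighbouring pair of hairpins. Mir497 and Mir195 start 324 bp apart on chromosome 10 (GRCr8), and their 5p strands belong to the miR-15/16 family, which is known to hold back cyclins and other drivers of the cell cycle. miR-195-3p measured 17.32, 18.09 and 16.42 RPMMM with iAs and 12.16, 9.07 and 9.30 with Cd, without overlap. Here the untreated libraries (20.25, 16.63 and 19.63) lay with iAs, and Cd was the lower group. The log2 difference was 0.72 (SE 0.12, limma adjusted p = 0.00513).

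miR-497-5p measured 290.46, 353.71 and 298.50 RPMMM with iAs and 230.42, 222.43 and 213.13 with Cd. The untreated libraries, at 360.74, 293.93 and 300.22, spanned about the range of iAs. Its log2 difference was 0.49 (SE 0.10, limma adjusted p = 0.0172), and the call was lost without iAs replicate 2 (0.0613), iAs replicate 3 (0.0514), Cd replicate 2 (0.0514) or Cd replicate 3 (0.0967). miR-195-5p, the more abundant strand of its hairpin, was at 60.03, 70.59 and 58.39 RPMMM with iAs and 48.97, 53.28 and 44.26 with Cd, without overlap. It was not called (0.36, limma adjusted p = 0.0717), except with the block in 6 libraries (0.0478), after median-of-ratios rescaling (0.0495) and after quantile normalization (0.0440).

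The seed AGCAGCA of miR-497-5p and miR-195-5p was shared by 6 tested canonical rows. All 6 differences were above 0, as were 273 of the 523 rows (52.2%), and 1 was called. The abundant miR-16-5p differed by 0.10 and miR-15b-5p by 0.04, and the 2 rows of miR-322-5p, which hold identical values, by 0.08. The 14 tested rows from all hairpins of the family include other strands and shifted forms with other seeds. Of them 2 were called higher, miR-497-5p and miR-195-3p, against 0.574% of all rows. The 14 differences were all above 0 and their median was 0.09. miR-16-3p, the minor strand of its hairpin, was at 77.0 ± 6.67 against 56.2 ± 3.73 RPMMM and was not called (0.45, limma adjusted p = 0.0893). It passed the threshold with the block in 6 libraries (0.0223), after quantile normalization (0.0409) and without Mn replicate 2 (0.0340).

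miR-146a-5p, which inflammatory signalling through NF-kB is known to induce and which lowers the adaptors of that pathway, was the third row higher with iAs. It measured 29.27, 29.98 and 27.52 RPMMM with iAs and 15.64, 18.93 and 17.85 with Cd. Untreated libraries were at 16.80, 13.34 and 15.01 and Mn libraries at 12.38, 12.65 and 14.81, so that the iAs libraries stood above all 9 others. The log2 difference of iAs minus Cd was 0.70 (SE 0.12, limma adjusted p = 0.00513). Its seed partner miR-146b-5p was far more abundant, at 2847 ± 27.2 RPMMM with iAs and 2552 ± 87.4 with Cd (SD, n = 3 each). That difference was 0.16, without overlap, and was not called (limma adjusted p = 0.107).

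**Figure D3:**
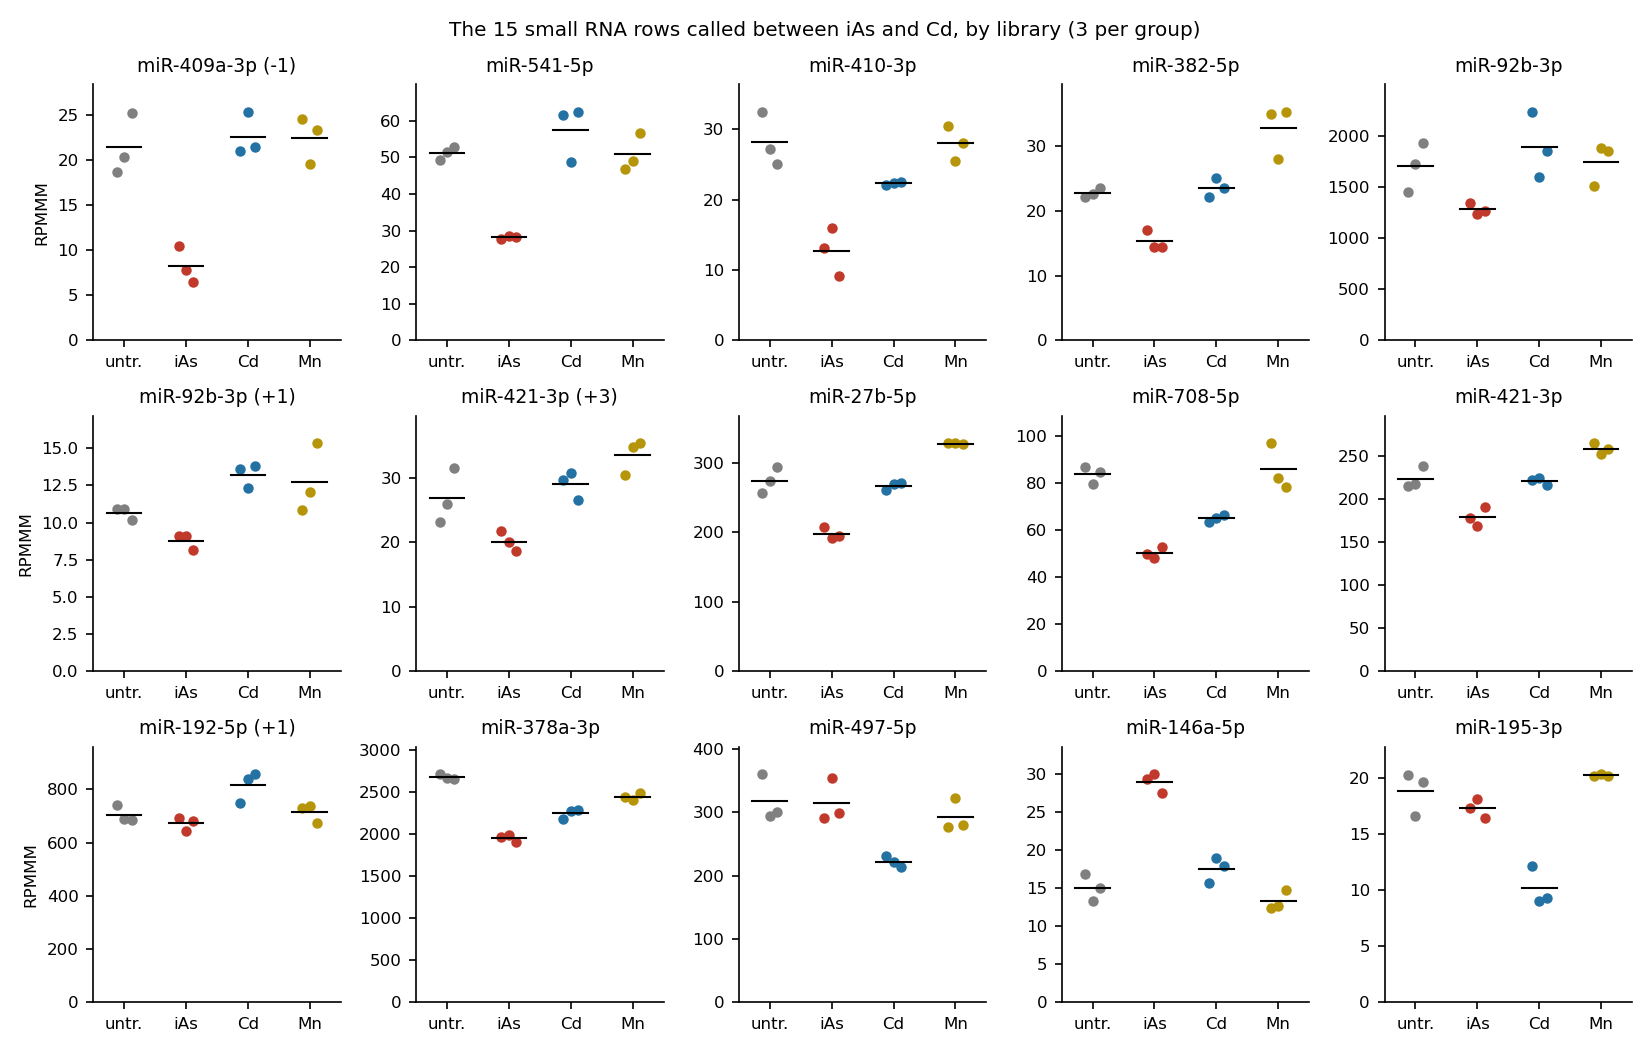
RPMMM of the 15 called rows in each library (points, 3 per group) with the group mean (bar), every axis from 0. In each panel the 3 iAs libraries stand clear of the 3 Cd libraries, and in miR-195-3p and miR-497-5p it is the Cd libraries that lie below the untreated ones.

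miR-27b-5p was the one other lower row that kept its call in all 25 alternatives. It is the minor strand of a hairpin that lies with Mir23b and Mir24-1 on chromosome 17, a cluster known from lipid metabolism and blood vessel growth. Its values were 207.28, 192.03 and 195.24 RPMMM with iAs and 260.48, 270.14 and 270.79 with Cd. The untreated libraries (255.95, 273.30 and 293.44) lay with Cd, and the groups did not overlap. The log2 difference was -0.43 (SE 0.07, limma adjusted p = 0.00351). The major strand miR-27b-3p, at 17934 ± 282 against 20002 ± 605 RPMMM (SD, n = 3 each), differed by -0.16 and was not called (limma adjusted p = 0.142).

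The rest of these clusters differed by less. Of 26 tested rows of miR-23, miR-27 and miR-24, 1 was called (lower), against 2.29% of all rows. Differences were below 0 in 21, against 250 of all 523 rows, with a median of -0.15. In 12 rows iAs lay below Cd without overlap, against 13.2% of all rows. miR-23b-3p differed by -0.14, miR-23b-5p by -0.45 and miR-24-1-3p by -0.10, none of them called. Rows of the paralogous hairpins lay on both sides of 0, with miR-23a-3p at 0.05, miR-27a-3p at 0.08, miR-27a-5p at -0.36 and a shifted form of miR-27a-3p at -0.20, none of them called. Whether the 2 clusters differ in their response was not tested. Reads of miR-24-3p cannot be assigned to 1 of its 2 hairpins, whose rows hold identical values.

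miR-92b-3p, of the family of miR-25 and miR-92a and known from neural progenitors, was the called row with the largest gap in RPMMM. It measured 1338.76, 1235.82 and 1262.98 with iAs and 2230.92, 1597.24 and 1847.95 with Cd. The Cd libraries were widely spread, and the untreated libraries ran from 1445.42 to 1924.88. The log2 difference was -0.55 (SE 0.13, limma adjusted p = 0.0394). Its form with a start 1 base downstream went the same way, from 8.14 to 9.11 RPMMM with iAs and from 12.31 to 13.80 with Cd (-0.54, limma adjusted p = 0.0411). The 4 other canonical rows with the seed AUUGCAC ranged from -0.09 (miR-25-3p) to 0.08 (miR-92a-1-3p), none called. The 14 tested rows from all hairpins of the family include other strands and shifted forms with other seeds. Of them 2 were called lower, miR-92b-3p and its downstream form, against 2.29% of all rows. The median of the 14 was -0.09.

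The call of miR-92b-3p was lost with the replicate block in 12 libraries (0.0774), and without untreated replicate 2, each iAs replicate, Cd replicates 1 and 3, and Mn replicates 2 and 3 (limma adjusted p between 0.0525 and 0.126). It was lost as well in the 6 libraries alone (0.0586), after quantile normalization (0.0851), without a filter (0.0689), at a mean of 50 RPMMM (0.0526) and without an intensity trend (0.0567). That of its downstream form was lost with the block in 12 libraries (0.0783) and in 6 (0.0505), and without untreated replicate 2, each iAs or Cd replicate, and Mn replicate 2 (0.0558 to 0.185). The 6 libraries alone (0.0586), quantile normalization (0.0823) and no filter (0.0763) lost it too.

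miR-421-3p, from a hairpin on the X chromosome 156 bp from Mir374b, measured 177.40, 168.63 and 191.08 RPMMM with iAs and 222.57, 224.25 and 215.73 with Cd. The untreated libraries (215.50, 217.05 and 238.23) lay with Cd. The log2 difference was -0.30 (SE 0.07, limma adjusted p = 0.0394). A form with a start 3 bases downstream was at 21.69, 19.99 and 18.67 RPMMM with iAs and 29.70, 30.72 and 26.55 with Cd (-0.51, limma adjusted p = 0.0411), without overlap. The neighbour rows miR-374-5p (-0.24) and miR-374-3p (-0.20) were not called. Both calls of miR-421-3p were lost with the block in 12 libraries (0.0783 for each) and in the 6 libraries alone (0.0818 and, for the form, 0.0586), and that of the form without a filter (0.0715). They were also lost without untreated replicate 2, each iAs or Cd replicate, and Mn replicates 2 and 3 (limma adjusted p between 0.0514 and 0.122 for miR-421-3p and 0.0525 and 0.162 for its form).

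miR-708-5p, which lies in an intron of the Tenm4 gene and is known to be induced in endoplasmic reticulum stress, was lower with both metals than without. Untreated libraries held 86.90, 79.80 and 84.73 RPMMM, Cd libraries 63.58, 65.27 and 66.53, and iAs libraries 49.86, 48.14 and 52.71. The 3 groups did not overlap. iAs differed from Cd by -0.37 (SE 0.09, limma adjusted p = 0.0411). miR-28-5p, which shares its seed AGGAGCU, differed by 0.04. The call of miR-708-5p was lost with the block in 12 libraries (0.0783), and without untreated replicate 2, each iAs or Cd replicate, and Mn replicate 2 (0.0558 to 0.185). It was also lost in the 6 libraries alone (0.0586), after quantile normalization (0.0823), without a filter (0.0704) and at a mean of 50 RPMMM (0.0507).

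miR-378a-3p, from an intron of the mitochondrial coactivator gene Ppargc1b, had the same order at a high level. It measured 1973.42, 1993.63 and 1910.05 RPMMM with iAs, 2184.87, 2274.89 and 2293.48 with Cd, and 2721.09, 2670.14 and 2655.50 untreated. The groups stood apart, with a log2 difference of iAs minus Cd of -0.20 (SE 0.05, limma adjusted p = 0.0411), the smallest among the called rows. Its call was lost with the block in 12 libraries (0.0866), and without untreated replicate 2, each iAs replicate, Cd replicates 2 and 3, and each Mn replicate (0.0533 to 0.215). Quantile normalization (0.306), the 6 libraries alone (0.0980), no intensity trend (0.0961), robust moderation (0.0607), no filter (0.0575) and a mean of 50 RPMMM (0.0507) lost it too.

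miR-192-5p, known from epithelia and as a target of p53, was called only as the form with a start 1 base downstream. This form measured 692.54, 645.36 and 682.51 RPMMM with iAs and 750.80, 840.36 and 858.34 with Cd, without overlap. The untreated libraries ran from 685.03 to 740.80, between the 2 metals or within the range of iAs. Its log2 difference was -0.28 (SE 0.07, limma adjusted p = 0.0473), and that of the annotated start, at 8947 ± 243 against 10391 ± 1106 RPMMM (SD, n = 3 each), was -0.21 with overlap (limma adjusted p = 0.195, and -0.30 with 0.0478 without Cd replicate 1). The 2 starts were not tested against each other. The call was lost with the block in 12 libraries (0.0866) and in 6 (0.0524), and without untreated replicate 2, each iAs replicate, Cd replicates 2 and 3, and each Mn replicate (0.0533 to 0.225). Further losses came in the 6 libraries alone (0.0980), without an intensity trend (0.0742), without a filter (0.0715), with robust moderation (0.0582) and at a mean of 50 RPMMM (0.0526).

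Set beside the untreated libraries, the called rows fell into several patterns. The estimates that follow share the untreated libraries and are given as a description. For miR-541-5p iAs minus untreated was -0.84 and Cd minus untreated 0.16, and for the miR-409a-3p form they were -1.29 and 0.08. For miR-27b-5p they were -0.47 and -0.04, and for miR-146a-5p 0.90 and 0.20. The distance from untreated thus lay mainly on the iAs side in these rows. It lay on the Cd side for miR-195-3p (-0.11 with iAs, -0.83 with Cd) and miR-497-5p (-0.02 and -0.51). Both metals lay below untreated for miR-410-3p (-1.11 and -0.32), miR-708-5p (-0.73 and -0.36) and miR-378a-3p (-0.45 and -0.25). Opposite signs were seen for miR-92b-3p (-0.40 with iAs and 0.15 with Cd, SE 0.13 each) and its downstream form (-0.26 and 0.29). They were also seen for the miR-192-5p form (-0.07 and 0.21), the miR-421-3p form (-0.39 and 0.12) and miR-382-5p (-0.55 and 0.05). miR-541-5p and the miR-409a-3p form, given above, had opposite signs as well. For miR-421-3p the distance lay mainly on the iAs side (-0.32 and -0.02).

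**Figure D4:**
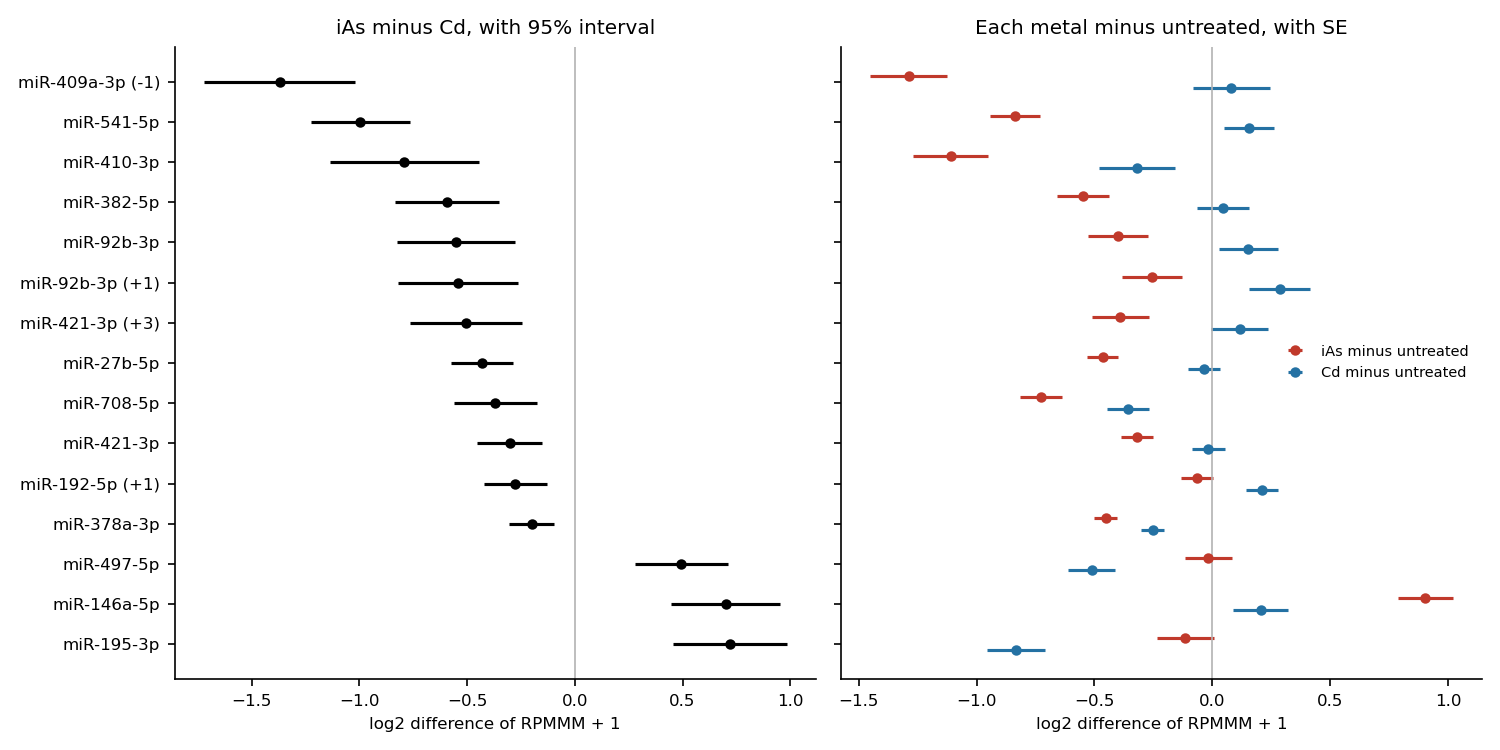
Log2 differences of the 15 called rows, iAs minus Cd with the 95% interval (left), and each metal minus untreated with its SE (right). The right panel shows miR-195-3p and miR-497-5p with iAs near 0 and Cd at -0.83 and -0.51, and miR-541-5p and the miR-409a-3p form with Cd near 0 and iAs at -0.84 and -1.29.

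Among the 19 lists of families, clusters and themes, the miR-29 family, which is known for its action on collagens and, in beta cells, on a monocarboxylate transporter, had differences above 0 in all 16 tested rows. Over all rows 52.2% were above 0. None of the 16 was called, 9 had iAs above Cd without overlap, against 8.41% of all rows, and the median was 0.25. miR-29a-3p was at 2665 ± 293 RPMMM with iAs and 2252 ± 78.7 with Cd (SD, n = 3 each), a difference of 0.24 (95% interval 0.02 to 0.45, limma adjusted p = 0.232). The rows nearest to a call were the forms of miR-29b-2-5p and miR-29b-3-5p that start 1 base upstream, which hold identical values (0.43, limma adjusted p = 0.0578). They passed the threshold without Cd replicate 1 (0.55, 0.0210), after quantile normalization (0.0366) and without an intensity trend (0.0399). Forms of miR-29a-3p (0.0341) and miR-29b-1-5p (0.0288) passed it with the block in 6 libraries. The form of miR-29a-3p with a start 6 bases downstream passed it after quantile normalization (0.0409) and without an intensity trend (0.0312). Several of the 16 rows hold identical values or are forms of the same strand, and are not independent.

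The miR-30 family had 18 of 21 differences above 0 (52.2% of all rows) and 6 rows with iAs above Cd without overlap (8.41% of all rows), with a median of 0.09 and none called. Its row miR-30a-5p differed by 0.21 (limma adjusted p = 0.205, and 0.0344 with the block in 6 libraries). The let-7 family, the most numerous with 75 rows, had 53 differences below 0 (250 of all 523 rows), a median of -0.05 and none called. Many rows of both families are shifted forms of a strand or list the same strand under another hairpin, and are not independent. In the miR-101 family, known for restraining the chromatin modifier Ezh2, 0 of 5 rows were called, and miR-101a-3p was at 273 ± 21.1 RPMMM with iAs and 208 ± 18.3 with Cd (0.39, limma adjusted p = 0.108). miR-101a-3p passed the threshold with the block in 6 libraries (0.0154), without untreated replicate 1 (0.0259) and without untreated replicate 3 (0.0492).

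Of the 46 tested rows of beta cell microRNAs, 1 was called, miR-708-5p, against 2.87% of all rows, and the median was 0.05. miR-375-3p was at 62333 ± 4973 RPMMM with iAs and 57568 ± 3414 with Cd (SD, n = 3 each), a difference of 0.11 with a 95% interval of -0.03 to 0.25. miR-7a-5p was listed under 2 hairpins, and the row of Mir7a-1 differed by 0.04 (95% interval -0.08 to 0.17). miR-184, known as a brake on beta cell expansion, differed by -0.01 and miR-26a-5p by 0.15 (limma adjusted p = 0.118). The intervals for miR-375-3p and miR-7a-5p exclude a difference of 1.5-fold between the exposures, but not smaller ones.

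Of 13 rows of hypoxia and stress microRNAs 1 was called, miR-146a-5p, against 2.87% of all rows, and 11 differences were above 0 (52.2% of all rows; median 0.12). miR-210, the hypoxia-induced microRNA, went the other way on both strands. Its minor strand miR-210-5p was at 18.1 ± 0.406 RPMMM with iAs and 25.7 ± 4.11 with Cd, without overlap, and was not called (-0.47, limma adjusted p = 0.0548). It passed the threshold in 5 alternatives, without untreated replicate 3 among them (0.0366 to 0.0492). miR-210-3p was at 351 ± 78.0 and 447 ± 23.4 RPMMM (-0.37, limma adjusted p = 0.158), with overlap, and passed the threshold without iAs replicate 2 (-0.54, 0.0130). miR-21-5p differed by 0.11 and was not called.

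Of 13 rows of p53-regulated microRNAs 1 was called, the miR-192-5p form, against 2.87% of all rows. Differences were below 0 in 10 (median -0.11), against 250 of all 523 rows. miR-34a-5p, the classic p53 target, was low and close in both, at 12.2 ± 2.00 and 11.9 ± 0.622 RPMMM (0.02). miR-194-2-3p, from the hairpin 185 bp from Mir192, was at 62.9 ± 2.77 with iAs and 83.1 ± 17.8 RPMMM with Cd (-0.38, limma adjusted p = 0.205). The activity-regulated miR-212-3p differed by -0.21 (limma adjusted p = 0.249) and miR-132-3p by -0.05. Untreated libraries held 147 ± 17.5 RPMMM of miR-212-3p, below both metals. miR-490-5p was at 11.3 ± 2.25 and 16.2 ± 2.81 RPMMM (-0.49, limma adjusted p = 0.192). No row was called in the lists of let-7, miR-29, miR-30, miR-17, miR-101, miR-181, miR-200, miR-183, miR-130 with miR-148, miR-132, miR-221 and miR-320.

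**Figure D5:**
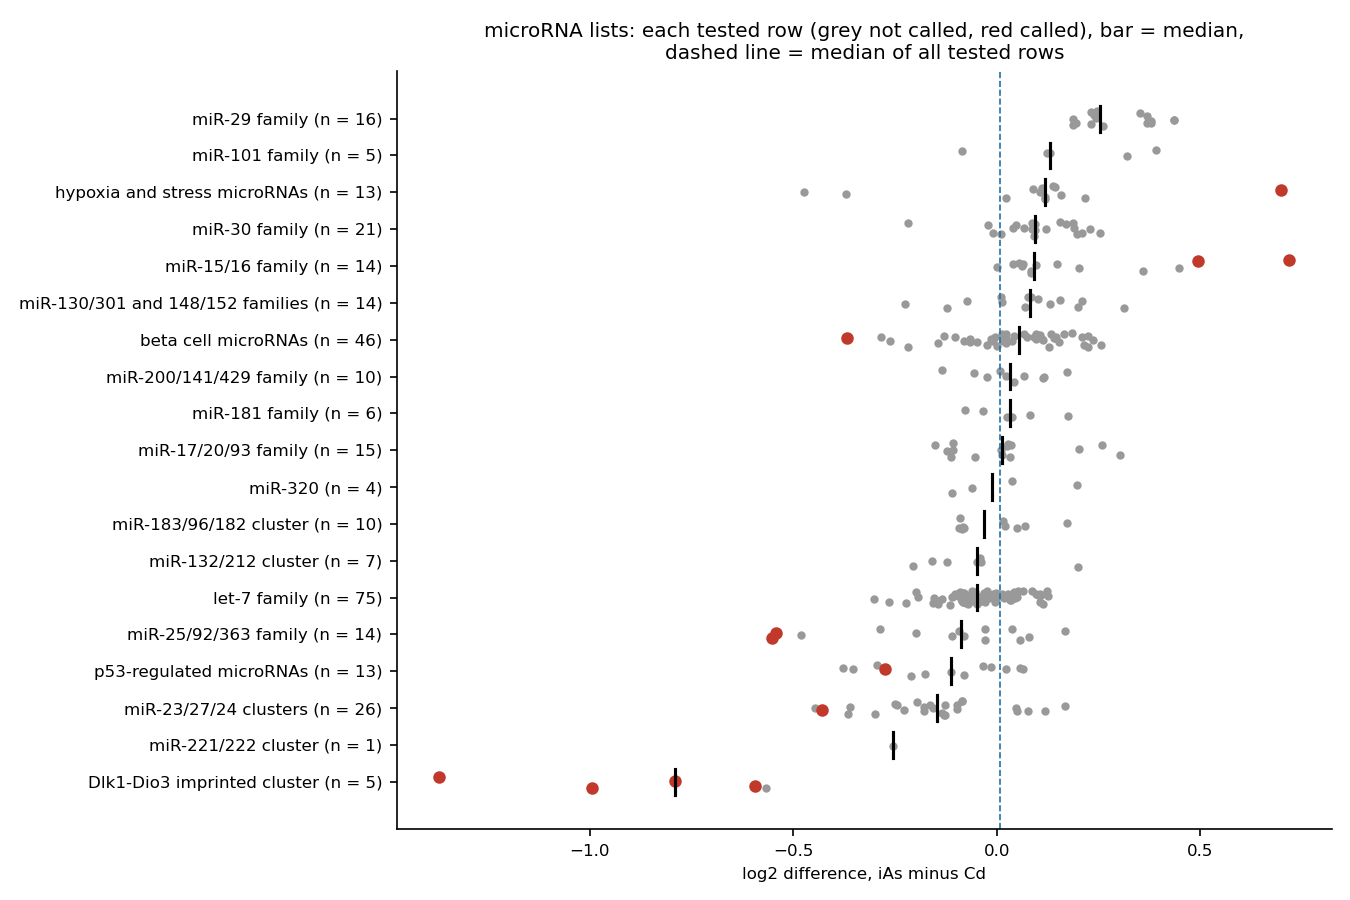
Log2 difference of iAs minus Cd for each tested row (points, red if called) of the 19 lists, with the list median (bar) and the median of all 523 rows (dashed line). The Dlk1-Dio3 list has its median at -0.79, and the medians of the miR-29 and miR-221 lists are next farthest from 0, at 0.25 and -0.25 (1 row).

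Forms with a shifted start made up 244 of the 523 tested rows and 4 of the 15 called rows. Of the 8 tested shifted forms of called canonical rows, all 8 had the sign of their canonical row, and 2 were called. Over all 238 shifted forms with a tested canonical row, 175 shared its sign. These forms are read from the same hairpins and libraries as the canonical rows and are no independent support. The summed share of shifted forms was 3.04%, 3.12% and 3.06% of RPMMM in the iAs libraries and 3.08%, 3.03% and 3.07% in the Cd libraries. The groups overlapped, with a difference of 0.0143 percentage points (exact two-sided permutation test, p = 0.7, where 3 libraries against 3 cannot give less than 0.1).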

How the data were processed

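Small RNA libraries, made with a TriLink CleanTag kit per the labels' protocols, gave 1 table of RPMMM values (an RPM unit, reads per 1000000 mapped to microRNAs), deposited by the authors. Each column summed to 1000000. The labels' name for the table points to miRquant, and the submitters' processing notes name the build rn6 and, for the series, STAR, Salmon and DESeq2. Versions and roles are not given in the sources used here. How reads matching several hairpins were counted is not given either, and 36 tested rows hold the values of another row. Because values are shares of a library, a change in an abundant microRNA moves all others.

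Low values were spaced by 0.127 to 0.169 RPMMM. Whole multiples of the step, to within 0.0075 RPMMM, made up 62.4% to 73.7% of them per library. This is too few to recover reads, and no count test was run. The smallest value above 0 stood for about 10 reads. Lower entries are listed at 0. Adding 1 before the log understates the change of low rows.

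Libraries were grouped by the treatment in their labels. R 4.3.3 with limma 3.58.1 tested each row whose mean over 12 libraries reached 10 RPMMM (limma-trend, log2(RPMMM + 1), 4 groups, 8 residual degrees of freedom, Benjamini-Hochberg adjustment, threshold 0.05). The fit was checked on simulated data with independent noise in each library. Such data hold no deviations shared between libraries, so the check does not cover them. The filter uses all 12 libraries, and 17 tested rows had an iAs mean and 9 a Cd mean under 10 RPMMM. 2 of the 17 were called, the forms of miR-409a-3p and miR-92b-3p.

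Same-numbered iAs and Cd libraries deviated together from their group means (correlations 0.37, 0.46 and 0.18 over rows). Among the iAs and Cd libraries each went most with its own number, so the numbers were taken as paired in the block fits. Untreated libraries went more strongly with other numbers, up to 0.69, so the correlations do not settle whether libraries were paired. The labels give no source of the pairing. The main fit held no block.

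Named were up to 12 called rows without overlap in each direction, the 2 rows of lowest p in each of 19 lists, a fixed set, and their other strands and forms. Members and lists were chosen with earlier results of these data known. Seeds and positions came from RefSeq (GRCr8), with distances counted between hairpin starts on that build. Python 3.11.15, pandas 2.3.3 and scipy 1.17.1 did the rest. Messenger RNA libraries hold no Cd group and were not used here.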

Additional observations from a re-analysis of the deposited data

How the results depend on the processing

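The 15 called rows (3 higher, 12 lower with iAs; limma) became 3 (1 and 2) where a mean of 50 RPMMM was required and 260 rows were tested, 8 (3 and 5) in the 6 iAs and Cd libraries alone, 8 (3 and 5) with the replicate block in 12 libraries and 25 (11 and 14) with the block in 6. Quantile normalization gave 17 (8 and 9) and limma without an intensity trend 16 (6 and 10). The cause was not tested. The other 7 settings gave 12 to 18. A similar count did not always mean the same rows. Among the 15 were 9 of the 13 calls without a filter and 11 of the 17 after quantile normalization. So were 12 of the 16 without an intensity trend and 10 of the 14 without Cd replicate 1. Leaving out 1 library gave 5 to 18 calls, 2 to 5 higher and 3 to 14 lower. The count was 8 without untreated replicate 2 or iAs replicate 1, 5 without iAs replicate 3 or Cd replicate 3, 6 without Cd replicate 2, 9 without Mn replicate 2 and 10 without iAs replicate 2 or Mn replicate 3. A group left with 2 libraries was assumed to vary like the others. Of the 15 calls, 5 were kept in every alternative with a value, 3 were lost in 3 or 4 and 7 in 11 to 16, and no called row changed sign. Among the 15 and the other named rows, the block changed no call but those given with the results and, with the block in 6, those of miR-30e-5p (0.0434) and a form of miR-101a-3p (0.0154).

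The difference in the share of shifted forms, 0.0143 percentage points, was 0.0168 in the tested rows alone and ran from -0.00796, without iAs replicate 2, to 0.0302. None of these was past the threshold, which 3 libraries against 3 cannot reach. With about 10 reads needed for a value above 0, absence cannot be told from a level under 1.28 to 1.75 RPMMM.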

Other observations

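Of the 663 rows under the filter, 5 were listed at 0 in all 3 libraries of one metal and above 0 in all 3 of the other, a set chosen after the values were seen. miR-154-3p, of the Dlk1-Dio3 region, was at 0 with iAs and at 1.74, 1.69 and 2.40 RPMMM with Cd. The miR-152-3p form with a start 1 base downstream was at 0 with iAs and in the untreated and Mn libraries, and at 2.21, 1.43 and 2.10 RPMMM with Cd. miR-107-5p was at 2.02, 2.15 and 1.54 RPMMM with iAs and at 0 with Cd. A miR-183-5p form (2 bases upstream) and a miR-30c-1-3p form (1 base downstream) had the same pattern. All of these values lie near the smallest value the table can hold.

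miR-139-5p, a tumour-suppressive microRNA that the naming rule does not reach, was singled out after its values were seen. It measured 476.75, 590.33 and 498.06 RPMMM with iAs and 720.80, 633.93 and 608.03 with Cd, without overlap, and was not called (-0.33, limma adjusted p = 0.0578). It passed the threshold without iAs replicate 2 (0.0130), without untreated replicate 1 (0.0481) and after median-of-ratios rescaling (0.0488). The miR-32-3p form with a start 1 base downstream was close to a call as well, at 17.8 ± 1.74 against 25.3 ± 3.12 RPMMM (SD, n = 3 each; -0.48, limma adjusted p = 0.0653).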
